A study of Mus musculus with 12 samples.

Results

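Of the mouse Toll-like receptor genes other than Tlr4, 10 were examined: Tlr1, Tlr2, Tlr3, Tlr5, Tlr6, Tlr7, Tlr8, Tlr9, Tlr12 and Tlr13. They were taken by gene symbol from the 23329 genes listed in the count tables. Tlr11, also a Toll-like receptor gene, was not among the 10 and had 0 to 4 counts in embryonic LPS and 0 counts in the other groups. The libraries were stranded, poly(A)-selected mRNAseq of primary stromal cells cultured from the mouse small intestine after the epithelium had been removed. The mice were wild type, and the cells were taken at the embryonic stage E14.5 or in adulthood. They were exposed for 6 h to LPS from Escherichia coli O111:B4, at a concentration the labels give as 10 µg/µl, or to PBS as vehicle. Stage and treatment made 4 groups of 3 libraries, and the cultures of a group were independent. The age of the adult mice was not given in the sources used here. Each embryonic culture was made from pooled embryos, and all cultures were passaged mixed populations, labelled as intestinal myofibroblasts, from which leukocytes had not been removed.

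Toll-like receptors are innate immune receptors that recognise microbial molecules and signal through the adaptors MyD88 and TRIF. Tlr1, Tlr2, Tlr5 and Tlr6 sit at the cell surface, where Tlr2 pairs with Tlr1 or Tlr6 to bind bacterial lipoproteins and Tlr5 binds flagellin. Tlr3, Tlr7, Tlr8, Tlr9, Tlr12 and Tlr13 act in endosomes. Tlr3 binds double-stranded RNA, Tlr7 and Tlr8 belong to the single-stranded RNA receptors, Tlr9 binds unmethylated CpG DNA, Tlr13 binds bacterial ribosomal RNA and Tlr12 recognises a protozoan profilin. Tlr4, the receptor for LPS itself, is given only for reference. Macrophages carry most members of the family, while fibroblasts are known for a smaller set that includes Tlr2 and Tlr3.

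The libraries held 18850224 to 32672370 counts on the sense strand of genes, and levels are given as CPM, the count of a gene relative to the library size after TMM scaling. The summed CPM of 11 stromal markers, among them the collagen gene Col1a1, was between 23030 and 46560 in all libraries, and that of 5 epithelial markers was 7.49 to 13.9 CPM in adult and 21.99 to 59.8 CPM in embryonic libraries, with 1 of the 5 above 0.5 CPM in all libraries of a group and Cdx2 at 0 in every group. Ptprc, which encodes the pan-leukocyte surface protein CD45, was at 0.338 to 6.43 CPM in the adult and at 7.57 to 162 CPM in the embryonic libraries. The summed level of the 12 macrophage markers present was 52.0 to 191 CPM in adult and 143 to 2606 CPM in embryonic libraries. The summed markers of neutrophils, B cells and T cells stayed at or below 3.36 CPM in all libraries. Summed dendritic cell markers were at 5.11 to 19.17 CPM in adult and 3.72 to 12.85 CPM in embryonic libraries. Mast cell markers reached 4.31 CPM in adult and 0.312 CPM in embryonic libraries. The summed endothelial markers ranged from 13.9 to 1752 CPM among adult libraries. In bulk samples such as these, fewer cells of a type and less RNA per cell cannot be told apart.

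Of the 10 receptors, 9 passed the filter on low values, a CPM above 0.5 in all libraries of at least 1 group, and were tested with edgeR (quasi-likelihood F-test), with p-values adjusted by Benjamini-Hochberg over all 13038 genes that passed. Tlr7 and Tlr8 passed through both embryonic groups and no adult group, Tlr1 and Tlr9 through embryonic LPS alone and Tlr13 through embryonic PBS alone, so these 5 were kept because of groups in which they were high. Tlr12 did not pass: it had 1, 0 and 0 counts in embryonic LPS, 2, 1 and 5 counts in embryonic PBS and 0 counts in all 6 adult libraries, where a count of 0 allows up to 3 counts, or 0.0925 to 0.145 CPM. No difference in Tlr12 was detectable at this depth.

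In the genome (RefSeq, GRCm38.p6), Tlr1 (chr5:64924680-64933600) and Tlr6 (chr5:64953092-64970942) lie next to each other on the minus strand of chromosome 5, and Tlr7 (chrX:167303380-167330574) and Tlr8 (chrX:167241123-167264329) lie together on the minus strand of chromosome X. Tlr13 is also on the X chromosome (chrX:106143275-106160493). Tlr1 and Tlr6 share sequence: 10.6% of the stretches of 75 bases in Tlr1 transcripts, the length of the reads, also occur elsewhere in the transcripts, mainly in Tlr6, and 9.25% of those in Tlr6 also occur in Tlr1. Since only uniquely mapped reads were counted, the levels of this pair are uncertain to that extent, and no such stretch was shared by the other 8 members.

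The promoters of Tlr2, Tlr3, Tlr13 and Tlr6 are shown so that they can be read beside the values below. Tlr2 and Tlr3 were called higher with LPS with and without pairing of same-numbered libraries, Tlr3 in embryonic stroma only. Tlr13 was called lower only with that pairing, and Tlr6 did not pass the test in any comparison. Tlr1, called higher only with that pairing, is not shown. Each promoter is the 250 bases before a RefSeq transcription start (GRCm38.p6), written 5′ to 3′ on the strand of the gene. They are chr3:83841609-83841858 for Tlr2, chr8:45410381-45410630 for Tlr3 and chr5:64959167-64959416 for Tlr6, all on the minus strand, and chrX:106143025-106143274 on the plus strand for Tlr13. The Tlr6 window and the further Tlr6 entry named below lie inside the span of the gene given above. The Tlr3 window also lies inside its gene (chr8:45395665-45411075), and the Tlr2 window overlaps its gene (chr3:83836272-83841824). Only the Tlr13 window lies wholly before the span of its gene. Capitals mark matches to the NF-kB consensus (Tlr2, Tlr3), to the interferon-response core, the letters GAAA repeated after a gap of 2 bases, on the opposite strand (Tlr6, 2 overlapping matches) and to GAGGAA, an ETS motif of the kind bound by the myeloid factor PU.1 (Tlr13).
Tlr2: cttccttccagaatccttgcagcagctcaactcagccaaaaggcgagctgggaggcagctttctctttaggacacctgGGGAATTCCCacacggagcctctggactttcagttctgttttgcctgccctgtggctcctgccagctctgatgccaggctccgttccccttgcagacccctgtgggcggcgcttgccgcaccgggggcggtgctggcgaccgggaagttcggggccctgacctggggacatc
Tlr3: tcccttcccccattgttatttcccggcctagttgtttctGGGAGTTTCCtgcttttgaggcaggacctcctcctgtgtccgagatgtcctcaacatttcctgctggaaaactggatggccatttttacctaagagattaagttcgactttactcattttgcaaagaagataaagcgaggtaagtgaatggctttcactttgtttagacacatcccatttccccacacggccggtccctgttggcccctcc
Tlr6: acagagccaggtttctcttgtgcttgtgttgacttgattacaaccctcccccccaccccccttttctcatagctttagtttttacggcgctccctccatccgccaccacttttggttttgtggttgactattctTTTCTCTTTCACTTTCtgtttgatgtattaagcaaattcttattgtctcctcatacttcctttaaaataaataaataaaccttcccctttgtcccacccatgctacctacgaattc
Tlr13: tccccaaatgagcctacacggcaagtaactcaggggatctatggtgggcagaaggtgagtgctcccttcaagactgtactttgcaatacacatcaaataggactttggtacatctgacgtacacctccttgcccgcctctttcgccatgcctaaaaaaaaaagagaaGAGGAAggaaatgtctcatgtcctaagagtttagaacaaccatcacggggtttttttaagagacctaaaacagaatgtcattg

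Both strands were searched, and 9 of the 10 receptors had a promoter entry, the exception being Tlr7. Tlr1 and Tlr6 each had a further entry at another transcription start. More sequence was therefore searched for them than the share per promoter counts. The NF-kB consensus occurred in Tlr2, 172 to 163 bases before the start, and in Tlr3, 211 to 202 bases before it, and in 5% of the 32851 promoters of the same length. A looser form of the NF-kB motif, GGG and CC with any 5 bases between, was searched first and was present in 45.8% of all promoters and in 5 of the 9 receptors (Tlr2, Tlr3, Tlr5, Tlr6 and Tlr12). The consensus was chosen after that share had been seen. Neither form was found in Tlr1, which was called higher with LPS only when same-numbered libraries were paired. The interferon-response core was found in the Tlr6 window shown, against 2.98% of all promoters. It was not in the further Tlr6 entry (chr5:64960049-64960298), which held the looser NF-kB form, and its letters were not in the Tlr3 window. GAGGAA was found in Tlr1 (chr5:64933559-64933808, not in its other entry), Tlr8, Tlr9 and Tlr13, against 23.2% of all promoters. Also searched were the AP-1 motif (TGANTCA, N being any base) and the GAS motif (TTCNNNGAA). AP-1 was found in Tlr9, against 6.75% of all promoters. GAS was found in Tlr8 and in the other Tlr1 entry, against 7.02%. A match is a description of the letters and not evidence of binding.

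**Figure D1:**
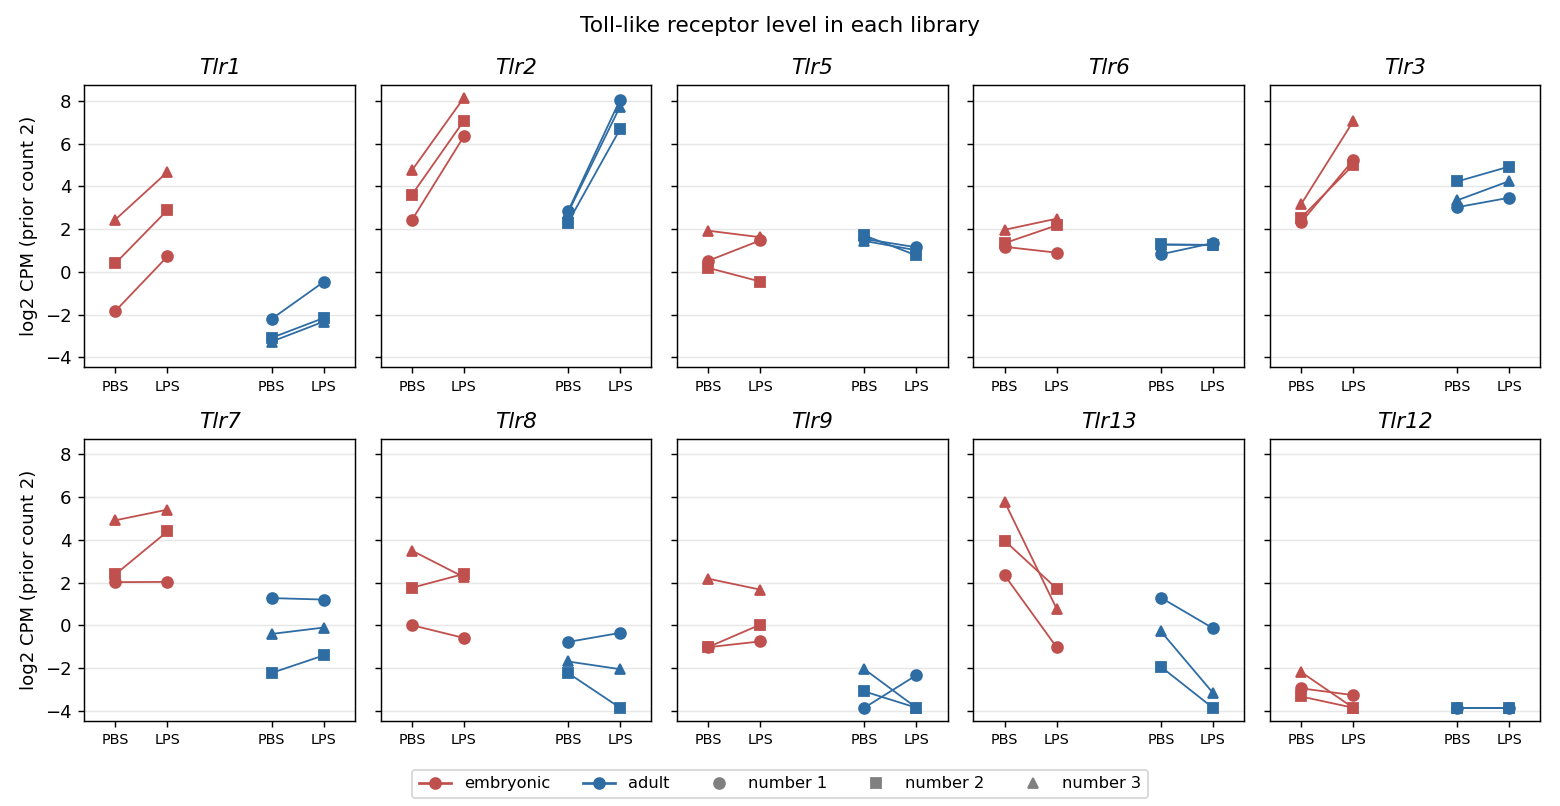
Level of each of the 10 receptors in each of the 12 libraries, as log2 CPM with a prior count of 2 (y axis), with PBS and LPS libraries on the x axis, embryonic in red and adult in blue. Lines join the LPS and PBS libraries that carry the same replicate number. Tlr2 lines climb in both stages, Tlr3 lines climb mainly in the embryonic libraries, Tlr13 lines descend, and Tlr12 stays near the lower limit.

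LPS raised 2 of the 9 tested receptors in embryonic stroma, Tlr2 and Tlr3, and 1 in adult stroma, Tlr2. Among all tested genes, 2.52% were called in embryonic and 0.568% in adult stroma, and 2.42% and 0.560% were called higher. LPS and PBS libraries with the same number deviated together from their group means, and when this pairing was included as a culture block, 4 receptors were called in embryonic stroma (Tlr1, Tlr2 and Tlr3 higher, Tlr13 lower) and 2 in adult stroma (Tlr1 and Tlr2 higher). With the block, 12.7% of all tested genes were called in embryonic stroma (8.67% higher, 4.07% lower) and 6.11% in adult stroma (4.46% higher). Tlr1 and Tlr13 had passed the filter on low values only through the embryonic group in which each was high. Their embryonic calls, and so the count of 4, were not independent of that selection. The median log2 fold change of all tested genes lay between -0.03 and -0.02 in these fits.

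Tlr2 was raised in both stages. Its level in embryonic PBS was 5.27, 12.1 and 26.7 CPM, and in embryonic LPS 80.9, 134 and 283 CPM. In adult stroma it was 7.03, 4.87 and 6.72 CPM with PBS and 265, 102 and 212 CPM with LPS. Every LPS library lay above every PBS library of its stage, and the pairs differed 15.3-, 11.1- and 10.6-fold in embryonic and 37.7-, 20.9- and 31.5-fold in adult stroma. The fitted log2 fold change was 3.50 (SE 0.652, adjusted p = 0.0204 in edgeR) in embryonic and 4.95 (SE 0.702, adjusted p = 0.014 in edgeR) in adult stroma. The difference between these responses was not called (log2 -1.45, SE 0.849, adjusted p = 1 in edgeR), and with the block it was -1.30 (SE 0.227, adjusted p = 0.055).

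The embryonic Tlr2 value was not called by edgeR when the embryonic stage was fitted alone (3.48, adjusted p = 0.193) or without embryonic PBS library 1 or 2 or embryonic LPS library 3 (adjusted p up to 0.0793). The adult value was not called without any one of the 3 adult PBS libraries (adjusted p up to 0.111). With the block, Tlr2 was called in both stages whichever culture was left out.

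Tlr1, the partner of Tlr2 for triacylated lipoproteins, had 0.212, 1.25 and 5.38 CPM in embryonic PBS and 1.58, 7.35 and 25.4 CPM in embryonic LPS. The ranges of the 2 groups overlapped, since the 3 cultures differed more from each other than LPS from PBS, but within the pairs the level was 7.45-, 5.88- and 4.72-fold higher with LPS. The log2 fold change was 2.32 (SE 1.14, adjusted p = 0.543 in edgeR) without the block and 2.46 (SE 0.181, adjusted p = 9.08e-05) with it. Tlr1 had passed the filter on low values through embryonic LPS alone, the group in which it was high, so this test was not independent of its selection. Adult libraries held few reads of Tlr1, with 4, 1 and 1 counts in PBS and 20, 5 and 3 counts in LPS. The adult log2 fold change was 1.97 (SE 1.56, adjusted p = 1) without and 1.96 (SE 0.417, adjusted p = 0.0341) with the block, in edgeR. The adult call was lost when any 1 of the 3 adult cultures was left out (adjusted p 0.0925 to 0.508), and only 1 adult pair was above 3 counts in both libraries.

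Tlr6, the other partner of Tlr2, for diacylated lipoproteins, stayed within 1.69 and 5.54 CPM in all 12 libraries. It was at 2.18, 2.47 and 3.84 CPM in embryonic PBS, at 1.79, 4.45 and 5.54 CPM in embryonic LPS, at 1.69, 2.36 and 2.34 CPM in adult PBS and at 2.47, 2.31 and 2.33 CPM in adult LPS. All 4 groups overlapped, and the log2 fold change with LPS was 0.47 (SE 0.385) in embryonic and 0.15 (SE 0.389) in adult stroma, neither called. Among the receptors, the interferon-response core was found only in Tlr6, in the window shown above and not in its further promoter entry.

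Tlr5, the flagellin receptor, was at 1.36, 1.07 and 3.72 CPM in embryonic PBS and at 2.70, 0.659 and 3.00 CPM in embryonic LPS, with no common direction among the pairs. In adult stroma it was at 2.83, 3.18 and 2.65 CPM with PBS and at 2.15, 1.63 and 1.94 CPM with LPS. Every adult LPS library lay below every adult PBS library, by 1.32-, 1.95- and 1.37-fold within pairs, but the difference was not called in edgeR (log2 -0.60, SE 0.565, adjusted p = 1, and -0.60, SE 0.310, adjusted p = 0.38 with the block). Groups that did not overlap made up 14.6% of all genes tested in adult stroma and 11.9% in embryonic stroma.

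Tlr3, the double-stranded RNA receptor, rose in embryonic stroma from 4.91, 5.70 and 8.89 CPM with PBS to 37.3, 31.8 and 132 CPM with LPS. The lowest LPS library lay above the highest PBS library, and the pairs differed 7.61-, 5.58- and 14.8-fold. The log2 fold change was 3.36 (SE 0.630, adjusted p = 0.0211 in edgeR) without and 3.12 (SE 0.249, adjusted p = 0.000143) with the block. In adult stroma the level was 8.06, 18.7 and 10.1 CPM with PBS and 10.98, 30.3 and 18.9 CPM with LPS. The adult groups overlapped, each pair was 1.36-, 1.62- or 1.87-fold higher with LPS, and the log2 fold change of 0.71 (SE 0.581, adjusted p = 1) was not called, nor was that of 0.69 (SE 0.235, adjusted p = 0.163) with the block.

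The difference of the Tlr3 response between the stages was 2.65 on the log2 scale (SE 0.831, unadjusted p = 0.0094, adjusted p = 1 in edgeR), larger in embryonic stroma. No gene of the 13038 was called for this difference without the block (0.00%), while 281 had an unadjusted p below 0.05 (2.16%), and DESeq2 also called none of the receptors. With the block, Tlr3 was the 1 receptor called (2.43, SE 0.336, adjusted p = 0.0199 in edgeR), against 0.805% of all tested genes (0.752% larger in embryonic stroma). That call was lost without adult culture 1, 2 or 3 (adjusted p 0.0727 to 0.0988) and held without any 1 embryonic culture (0.00428 to 0.0484). The embryonic Tlr3 response itself was not called, without the block, when the stage was fitted alone (3.33, adjusted p = 0.14) or without embryonic PBS library 1, 2 or 3 (adjusted p up to 0.102).

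Tlr13, the receptor for bacterial ribosomal RNA, was the receptor called lower with LPS in embryonic stroma, and only with the culture block. It had passed the filter on low values through embryonic PBS alone, the group in which it was high, so this test was not independent of its selection. It was at 5.00, 15.5 and 54.7 CPM in embryonic PBS and at 0.421, 3.23 and 1.64 CPM in embryonic LPS, with counts of 165, 509 and 1808 against 12, 98 and 42. The groups did not overlap, and the pairs were 11.9-, 4.801- and 33.4-fold lower with LPS. The log2 fold change was -3.82 (SE 1.33, adjusted p = 0.247 in edgeR) without the block, and -3.57 (SE 0.531, adjusted p = 0.00427) with it. DESeq2 without the block gave -3.80 (adjusted p = 0.0516). With the block the call held whichever culture was left out, at log2 fold changes of -4.62 to -2.69.

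In adult stroma, Tlr13 had 65, 4 and 22 counts with PBS and 26, 0 and 1 counts with LPS. Only the first pair was above 3 counts in both libraries, and there the level was 2.83-fold lower with LPS. The adult change was not called by edgeR, with or without the block (adjusted p = 0.256 and 1), and its difference from the embryonic change was not called either (log2 -1.94, SE 1.87, adjusted p = 1). The share of all tested genes called lower in embryonic stroma was 0.0997% without and 4.07% with the block.

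Tlr7, a single-stranded RNA receptor, was at 3.997, 5.18 and 30.2 CPM in embryonic PBS and at 4.04, 21.0 and 42.7 CPM in embryonic LPS. The groups overlapped and the pairs differed 1.01-, 4.06- and 1.41-fold, with a log2 fold change of 0.78 (SE 1.09, adjusted p = 0.98 in edgeR), and 0.86 (SE 0.335, adjusted p = 0.142) with the block. Tlr8, its neighbour on the X chromosome, was at 0.939, 3.32 and 11.2 CPM in embryonic PBS and at 0.596, 5.24 and 4.72 CPM in embryonic LPS. The pairs of Tlr8 went in both directions, and its log2 fold change was -0.56 (SE 1.10, adjusted p = 1).

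Tlr9, the CpG DNA receptor, was at 0.424, 0.426 and 4.48 CPM in embryonic PBS and at 0.526, 0.956 and 3.12 CPM in embryonic LPS. Its pairs also went in both directions, and its log2 fold change was -0.22 (SE 1.09, adjusted p = 1). In adult libraries these 3 receptors were scarce, with 3 to 69 counts of Tlr7, 0 to 22 counts of Tlr8 and 0 to 5 counts of Tlr9, and a change in Tlr9 was not detectable at that depth. Tlr4, for reference, was at 11.7 to 25.3 CPM in embryonic PBS, 10.9 to 18.6 CPM in embryonic LPS, 33.03 to 40.5 CPM in adult PBS and 27.9 to 34.8 CPM in adult LPS, and was not called for LPS in either stage.

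**Figure D2:**
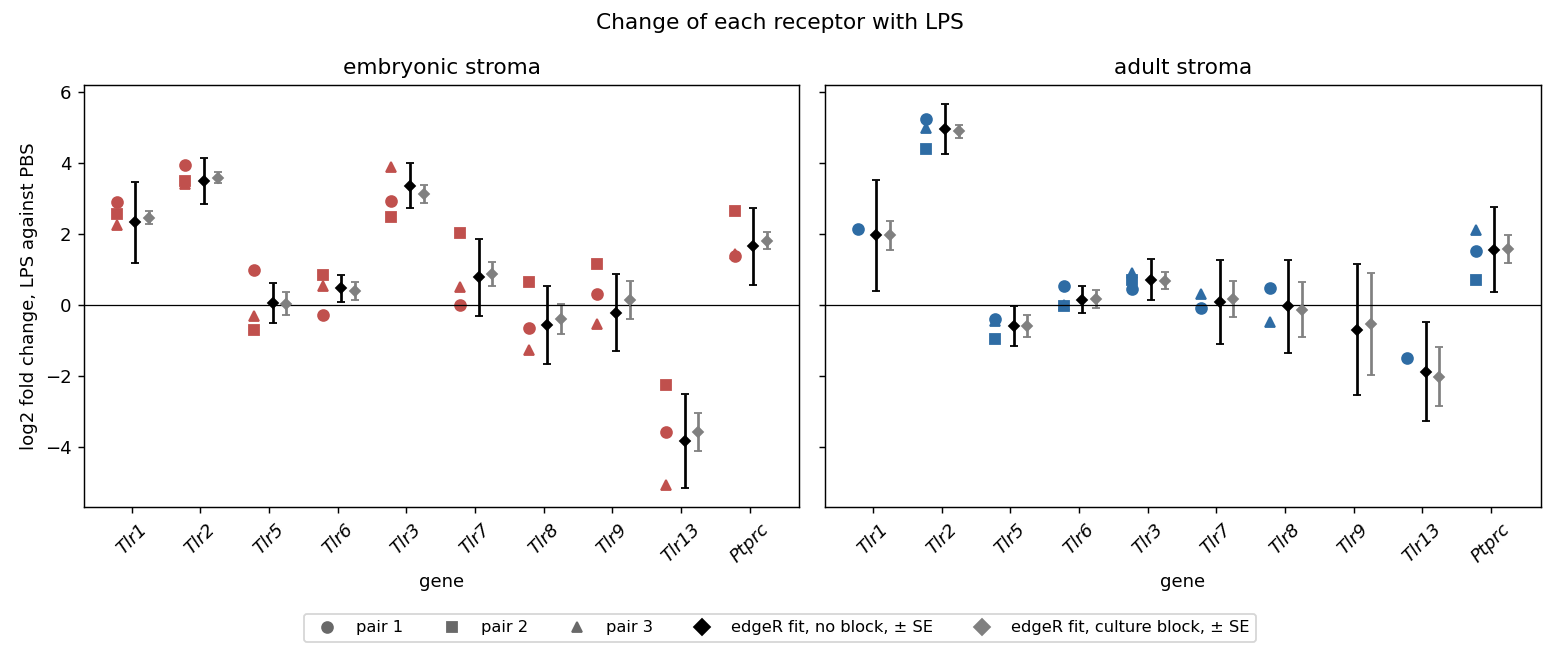
Log2 fold change of LPS against PBS (y axis) for the 9 tested receptors and Ptprc (x axis), in embryonic (left) and adult stroma (right). Coloured points are same-numbered pairs with more than 3 counts in both libraries, and diamonds are edgeR fits with their SE, black without and grey with the culture block. The SE of Tlr1 in embryonic stroma was 1.14 without and 0.181 with the block.

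Over both treatments, 5 receptors were higher in embryonic than in adult stroma: Tlr1, Tlr7, Tlr8, Tlr9 and Tlr13. All 5 had passed the filter on low values only through embryonic groups, so a test in this direction was not independent of their selection. Of all tested genes, 17.6% were called in this comparison and 9.01% were called higher. The log2 differences were 4.98 for Tlr1 (SE 0.994, adjusted p = 0.00803), 3.95 for Tlr7 (SE 0.881, adjusted p = 0.0127), 3.80 for Tlr8 (SE 0.911, adjusted p = 0.0175), 4.70 for Tlr9 (SE 1.03, adjusted p = 0.0119) and 3.50 for Tlr13 (SE 0.970, adjusted p = 0.0323), all from edgeR. These tests count the LPS and PBS libraries of a culture as separate samples. When the counts were summed per culture, giving 3 cultures against 3, none of the 5 was called (adjusted p 0.0939 to 0.143 in edgeR, unadjusted p 0.0048 to 0.0145), and 1.10% of all tested genes were. Without a single library, Tlr13 lost its call in 7 of 12 cases, namely without embryonic LPS 2 or 3, embryonic PBS 3, adult LPS 2 or 3 or adult PBS 2 or 3 (log2 2.85 to 3.52, adjusted p 0.0504 to 0.086), and Tlr8 without adult LPS 3 or adult PBS 3 (adjusted p up to 0.0534).

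With PBS alone, no receptor was called by edgeR (4.18% of all tested genes were). Tlr1, Tlr7, Tlr8, Tlr9 and Tlr13 had unadjusted p from 0.00867 to 0.0149 in edgeR, where 19.7% of all tested genes had one below 0.05. Their log2 differences were 3.60 to 4.801, and DESeq2 called these 5. The share of all tested genes that DESeq2 called is not given here, so this count has no background beside it. The limit set by the filter on low values applies to these 5 receptors here as well. Every embryonic library lay above every adult library for Tlr7 and Tlr9, as was the case for 4.72% of all tested genes, while the ranges of Tlr1, Tlr8 and Tlr13 overlapped. Tlr2, Tlr3, Tlr5 and Tlr6 were not called between the stages, with log2 differences over both treatments of 0.51, 0.41, -0.17 and 0.57. Ptprc moved with the 5 receptors, at a log2 difference of 4.64 (SE 0.889, adjusted p = 0.0068), and its own call was also lost when counts were summed per culture (adjusted p = 0.102). The part that leukocyte content has in the values of the receptors was not tested.

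**Figure D3:**
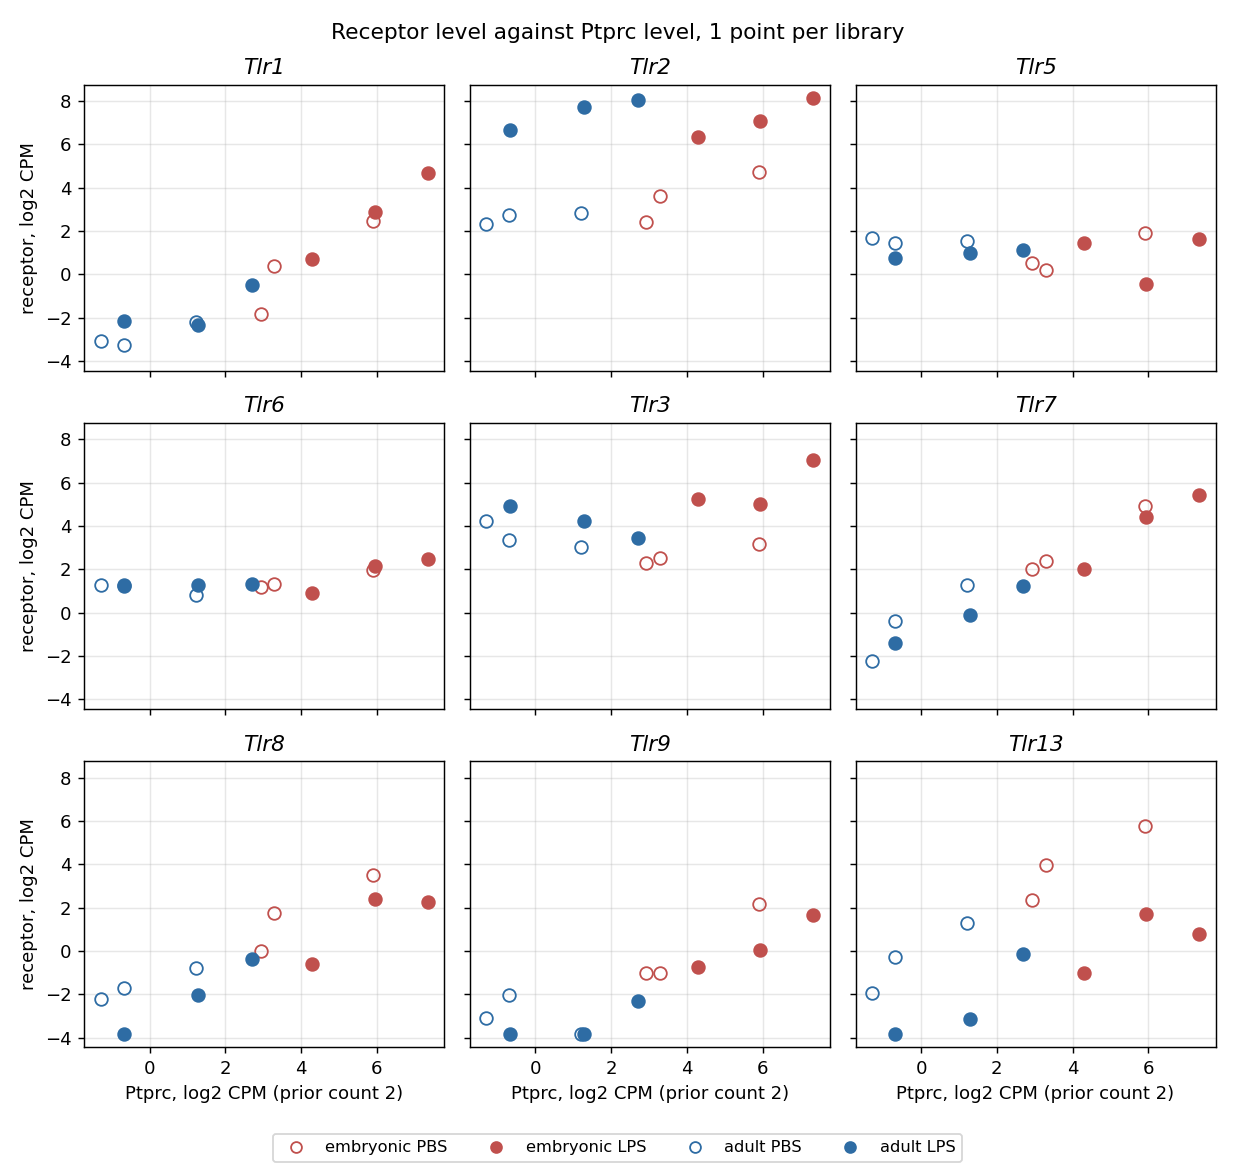
Level of the 9 tested receptors (y axis) against that of Ptprc (x axis), both as log2 CPM with a prior count of 2, with 1 point per library. Open circles are PBS and filled circles LPS, in red for embryonic and blue for adult libraries. Tlr7 climbs with Ptprc, and relative to Ptprc its embryonic LPS points (20.6% to 34.2%) lie below its embryonic PBS points (50.4% to 53.1%). Tlr13 splits into a PBS band and a lower LPS band, and Tlr5 shows no slope while Ptprc ranges from 0.338 to 162 CPM. Tlr6 is highest, at 3.84 to 5.54 CPM, in 3 of the embryonic libraries.

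Ptprc itself was higher with LPS in every pair, 2.59-, 6.31- and 2.71-fold in embryonic and 2.87-, 1.64- and 4.30-fold in adult stroma. It was called in embryonic stroma with the block (log2 1.82, SE 0.246, adjusted p = 0.00263 in edgeR) and not without it (1.66, SE 1.08, adjusted p = 0.737). In adult stroma Ptprc was not called with the block (1.59, SE 0.392, adjusted p = 0.0592 in edgeR) or without it (1.55, SE 1.20). The adult counts of Ptprc were 61, 7 and 16 with PBS and 198, 18 and 55 with LPS. Expressed as a percent of the Ptprc count of the same library, Tlr7 was at 52.8%, 53.1% and 50.4% in embryonic PBS and at 20.6%, 34.2% and 26.3% in embryonic LPS. The ratio was nearly equal among the PBS cultures although Tlr7 itself ranged from 3.997 to 30.2 CPM there. It was lower in every LPS library, by a mean of -0.98 (SD 0.362, 3 pairs) on the log2 scale.

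The ratio of Tlr13 to Ptprc was 66%, 159% and 91.4% in embryonic PBS and 2.15%, 5.25% and 1.01% in embryonic LPS. Relative to Ptprc, Tlr13 was thus 30.7-, 30.3- and 90.6-fold lower with LPS in the 3 pairs. In the adult pair above the floor it was 8.12-fold lower. Tlr8 went from 12.4%, 34.1% and 18.8% to 3.05%, 8.52% and 2.91% of Ptprc, and Tlr9 from 5.6%, 4.38% and 7.48% to 2.69%, 1.55% and 1.92%. For Tlr7, Tlr8, Tlr9 and Tlr13, all embryonic LPS libraries lay below all embryonic PBS libraries in this ratio, as did 3.29% of all tested genes other than Ptprc. A gene whose CPM stays level goes down in this ratio when Ptprc goes up: the mean log2 change relative to Ptprc in the embryonic pairs was -1.98 for Tlr4, -1.83 for Tlr5 and -1.46 for Tlr6, beside -1.50 for Tlr9. Tlr1 was at 2.8%, 12.8% and 8.99% with PBS and at 8.07%, 11.9% and 15.7% with LPS, and overlapped.

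These ratios depend on the choice of Ptprc, whose own level was higher with LPS, and they were not tested. Against the summed CPM of 9 pan-leukocyte genes, the mean log2 change in the embryonic pairs was 0.28 for Tlr7, -0.98 for Tlr8, -0.25 for Tlr9, 2.00 for Tlr1 and -4.19 for Tlr13, where against Ptprc it was -0.98, -2.24, -1.50, 0.74 and -5.45. The direction for Tlr7 differed between these references, and that for Tlr13 did not. In adult libraries the pan-leukocyte sum stayed between 141 and 181 CPM while Ptprc ranged from 0.338 to 6.43 CPM, so the sum did not follow Ptprc there. Tlr2 was at 174% to 413% of Ptprc in embryonic LPS and at 4116% to 18360% in adult LPS, and Tlr3 was at 171% to 5467% in adult LPS. These adult percents rest on 18 to 198 counts of Ptprc per library.

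Levels of different receptors were compared per length, as CPM per kb of merged exon sequence. In adult PBS, Tlr2 (1.62 to 2.33 CPM per kb) and Tlr3 (1.55 to 3.58) came first and overlapped, followed by Tlr6 (0.455 to 0.634) and Tlr5 (0.554 to 0.665), which also overlapped, and then by Tlr13, Tlr7, Tlr8, Tlr1 and Tlr9 at medians of 0.176 or less. In adult LPS, Tlr2 stood apart at 33.8 to 87.9 CPM per kb, above Tlr3 at 2.11 to 5.82. In embryonic PBS, the medians ran from Tlr2 (4.001) over Tlr13 (3.60), Tlr7 (1.27), Tlr3 (1.09), Tlr8 (0.926) and Tlr6 (0.662) to Tlr1, Tlr5 and Tlr9, and each neighbour in this order overlapped with the next. In embryonic LPS, Tlr2 (26.8 to 93.9) was above Tlr3 (6.11 to 25.2), followed by Tlr7 at a median of 5.15, and Tlr13 had moved to the eighth place (0.0978 to 0.751). Tlr4, at 5.95 to 7.28 CPM per kb, was above all 10 receptors in adult PBS.

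**Figure D4:**
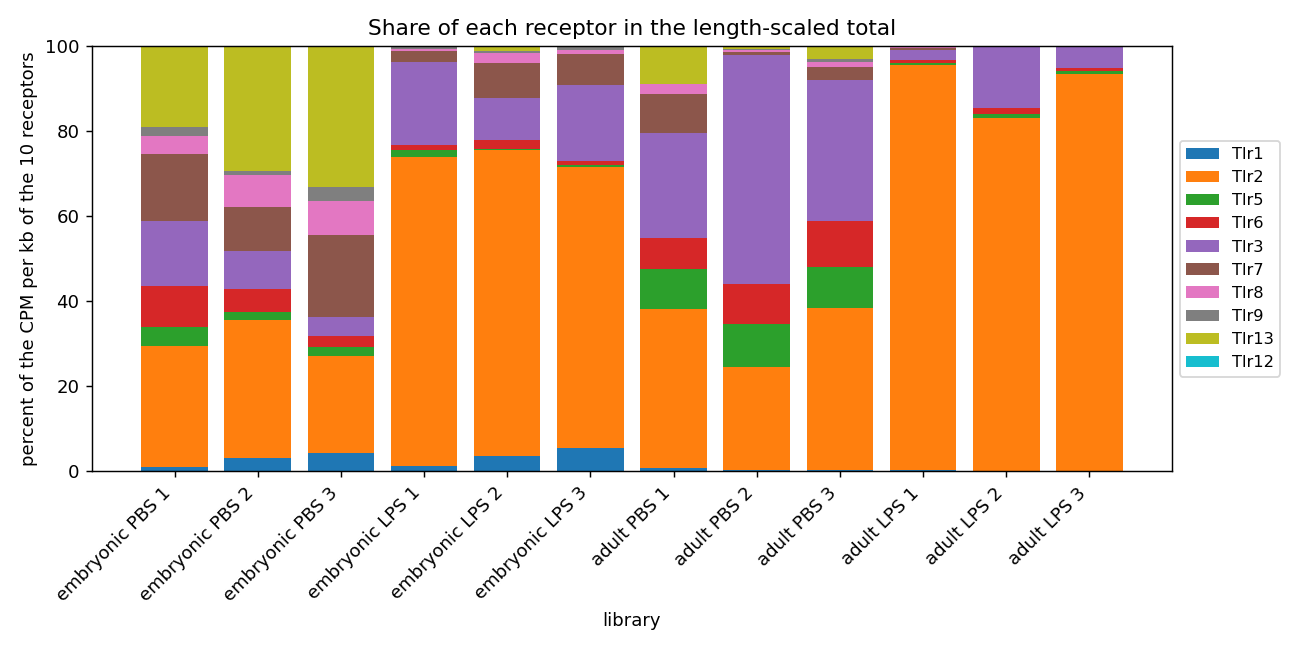
Share of each of the 10 receptors in their summed CPM per kb (y axis, percent), with 1 bar per library on the x axis. Tlr2 makes up 23.0% to 38.3% of the PBS bars and 66.2% to 95.2% of the LPS bars, and Tlr13 goes from 18.8% to 32.95% in embryonic PBS to 0.265% to 1.21% in embryonic LPS.

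Summed over the 10 receptors, the level per length was 5.82 to 6.65 CPM per kb in adult PBS, 40.7 to 92.2 in adult LPS, 6.17 to 38.6 in embryonic PBS and 36.9 to 142 in embryonic LPS. The share of Tlr2 was 24.3% to 38.3% in adult PBS and 83.0% to 95.2% in adult LPS. In embryonic stroma it was 23.0% to 32.6% with PBS and 66.2% to 72.7% with LPS. Tlr3 made up 24.8% to 53.9% in adult PBS, 4.43% to 15.3% in embryonic PBS and 9.87% to 19.4% in embryonic LPS. The share of Tlr7, Tlr8 and Tlr13 was larger in embryonic PBS, at 10.3% to 19.2%, 4.25% to 8.14% and 18.8% to 32.95%, than in adult PBS, where each was at 9.24% or less.

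The genes whose log2 CPM followed each receptor most closely over the 12 libraries are given as a description, since stage, treatment and culture are shared by these points. For Tlr2 they were Ankrd33b (Pearson r = 0.98), Rab8b (0.98) and the NF-kB subunit gene Nfkb1 (0.97). For Tlr3 they were the cytosolic RNA sensor gene Ddx58 (0.98), the interferon-stimulated gene Herc6 (0.98) and D14Ertd668e (0.97). For Tlr7 they were Emr1, which encodes the macrophage protein F4/80 (0.99), Ms4a7 (0.99) and Ncf4 (0.99), and for Tlr8 the macrophage genes Mrc1 (0.99), Trem2 (0.98) and Cd68 (0.98). Tlr1 went with Aoah (0.99), Coro2a (0.98) and Plek (0.98), Tlr9 with Gna15 (0.96), Atp2a3 (0.95) and Aif1 (0.95), and Tlr13 with Gpr65 (0.97), Cd300a (0.96) and F630028O10Rik (0.96). For Tlr6 they were Ogfrl1 (0.94), Mitf (0.93) and Slc16a10 (0.93), and for Tlr5 Zfp629 (0.94), Capn1 (0.92) and Ccdc159 (0.92).

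Among genes that serve these receptors, those for folding, trafficking and proteolysis were not called with LPS in either stage (0 of 11, median log2 fold change 0.02 in embryonic and 0.04 in adult stroma). Unc93b1, the chaperone that carries endosomal receptors from the endoplasmic reticulum, was at 31.7 ± 34.9 CPM (SD, n = 3) in embryonic PBS and 47.1 ± 40.6 CPM in embryonic LPS. With the block, it was called there (log2 0.77, adjusted p = 0.018 in edgeR), together with the endosomal transporter gene Slc15a3 (2.20, adjusted p = 0.00202), and Slc15a3 was also called in adult stroma (2.44, adjusted p = 0.0167). These counts, 2 of 11 in embryonic and 1 of 11 in adult stroma, were near the shares of all tested genes called with the block, 12.7% and 6.11%. The 3 genes with the lowest p in embryonic stroma without the block were Slc15a3 (2.12, adjusted p = 0.459), Ap3b1 (0.21, adjusted p = 0.554) and Cnpy3 (-0.13, adjusted p = 0.855).

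Of 5 co-receptors, Cd14, which hands LPS and lipoproteins to the receptors, was called higher in embryonic stroma (log2 4.44, SE 0.850, adjusted p = 0.0229) and none in adult stroma (Cd14 2.12, adjusted p = 0.623). Of all tested genes, 2.52% were called in embryonic and 0.568% in adult stroma without the block, and 12.7% and 6.11% with it. Clec7a and Cd36 had the next lowest p (-0.63 and -0.35, both adjusted p = 1). With the block, Cd14 was called in both stages (4.19, adjusted p = 7.06e-06, and 2.12, adjusted p = 0.0011) and Clec7a in adult stroma (1.81, adjusted p = 0.0306). Of 11 tested adaptors and first kinases, 3 rose in embryonic stroma: Traf3 (0.71, adjusted p = 0.00381), the kinase gene Ikbke (2.80, adjusted p = 0.0117) and the shared adaptor gene Myd88 (1.99, adjusted p = 0.0379). Traf3 was the 1 called in adult stroma (0.59, adjusted p = 0.0223). With the block, the same 3 were called in embryonic stroma and Ikbke joined Traf3 in adult stroma (1.88, adjusted p = 0.000486). Ticam1, which encodes TRIF, the adaptor of Tlr3, was not called (0.29 and 0.23).

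Of the 4 interferon regulatory factors downstream of endosomal receptors, Irf7 rose in embryonic stroma from 2.48 ± 2.35 to 133 ± 119 CPM (SD, n = 3; log2 5.74, SE 0.833, adjusted p = 0.00688) and none was called in adult stroma (Irf7 1.72, adjusted p = 0.762). Irf5 (2.396, adjusted p = 0.131) and Irf8 (1.92, adjusted p = 0.481) were called in embryonic stroma only with the block (adjusted p = 0.000117 and 0.0273), where Irf5 and Irf7 were called in adult stroma as well. Of 5 tested genes listed here as negative regulators, 3 rose in embryonic stroma, Tnip1 (1.91, adjusted p = 0.00738), the deubiquitinase gene Tnfaip3 (3.25, adjusted p = 0.0185) and Peli1 (2.28, adjusted p = 0.0307), and Tnip1 was called in adult stroma (2.30, adjusted p = 0.00896). Whether each gene of this list, Peli1 among them, dampens the signal in these cells was not tested. With the block, Irak3 was also called in embryonic stroma (1.79, adjusted p = 0.000527), and Irak3 (1.14, adjusted p = 0.00888) and Tnfaip3 (3.00, adjusted p = 0.015) were called beside Tnip1 in adult stroma. With the block, the differences between the stages were called for Irf7 (4.06, adjusted p = 0.00215) and Cd14 (2.07, adjusted p = 0.0193) in these lists, and without it for none. All adjusted p in these lists are from edgeR over all genes tested. The shares of all tested genes called with LPS were 2.52% in embryonic and 0.568% in adult stroma, and 12.7% and 6.11% with the block. For the difference between the stages with the block, the share was 0.805%.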

How the data were processed

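The 12 mRNAseq libraries came from stromal cultures and were grouped by the stage, treatment and replicate number in the sample labels. Per the labels and the methods, the authors mapped 75-base single-end reads to mm10 with STAR and kept uniquely mapped reads; the deposited values are raw read counts per gene, without normalization, for both strands together and each strand apart. The sense-strand counts were used here, and reads on the opposite strand made up 1.14% to 1.98%. Reads not assigned to a gene on that strand, 17.4% to 19.9%, were left out. They included multimapping reads (8.45% to 9.37% of all reads) and unmapped reads (1.10% to 2.49%).

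The software was edgeR 4.0.16, DESeq2 1.42.0 and limma 3.58.1 (R 4.3.3), with matplotlib 3.10.9 (Python 3.11.15) for the figures. A gene was kept if its CPM was above 0.5 in every library of at least 1 group, which left 13038 of 23329. Libraries were scaled by TMM and fitted over 4 groups with edgeR's quasi-likelihood test; a call is a Benjamini-Hochberg adjusted p below 0.05 over all tested genes. Log2 CPM used a prior count of 2, and 3 counts per library were taken as the floor. The study's text names edgeR but no block. Same-numbered LPS and PBS libraries had correlated deviations from their group means (0.709 to 0.784 in embryonic, 0.610 to 0.849 in adult stroma); the numbers come from the labels, and that they mark a shared culture is inferred from this check. Merged exon lengths came from GENCODE and promoters from RefSeq. The alternatives were an adjusted p below 0.01, a log2 fold change of at least 2, the replicate block, DESeq2, other size factors and filters, each stage alone, both strands together, and each library left out; the block without each culture and counts summed per culture were added after the data had been seen. All 10 receptors, Ptprc, the 3 genes of each list with the lowest p in embryonic stroma, genes named in the study's text and the 3 genes most like each receptor are named. Members and lists were chosen with earlier results of these data known. Scripts were tested on simulated data. Counting floors cover counting error only.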

Additional observations from a re-analysis of the deposited data

Results flagged for a closer look

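The response of Tlr3 to LPS differed between the stages in the fit with the culture block, by 2.43 on the log2 scale (SE 0.336, adjusted p = 0.0199 in edgeR), and was higher in embryonic stroma. The test of the difference itself marked it. Tlr3 was higher with LPS in 3 of 3 embryonic pairs (7.61-, 5.58- and 14.8-fold) and in 3 of 3 adult pairs (1.36-, 1.62- and 1.87-fold), so the pairs differed in size and not in direction. Without the block the difference was not called (2.65, adjusted p = 1), and with the block it was not called once any 1 of the 3 adult cultures was left out (adjusted p 0.0727 to 0.0988). Groups of 3 libraries were too small for a check of single outlying libraries.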

How the results depend on the processing

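With an adjusted p below 0.01, 0 receptors were called in embryonic and 0 in adult stroma for LPS, and 1 between the stages over both treatments. The replicate block gave 4 in embryonic stroma, 2 in adult stroma and 1 for the difference of responses, and changed no other call on a receptor. Of the 4, Tlr1 and Tlr13 had passed the filter on low values only through the group in which each was high. With the block and 1 culture left out, the embryonic count was 4 each time, the adult count 1 to 3 (3 without embryonic culture 3, where Tlr3 was called, and 1 without any 1 adult culture) and that for the difference of responses 0 or 1 (0 without adult culture 1 or 3; without adult culture 2 the 1 called was Tlr2). DESeq2 called 5 receptors between the stages with PBS, all kept only through embryonic groups, and its share over all tested genes is not given here. Embryonic stroma fitted alone gave 0, and counts summed per culture gave 0 over both treatments. Leaving out 1 library gave 0 to 2 in embryonic stroma, 0 to 1 in adult stroma (0 without any 1 adult PBS library) and 3 to 6 between the stages over both treatments, where Tlr6 was called without embryonic LPS 1. Other size factors, other filters, counts on both strands together and a log2 fold change of at least 2 changed no call on a receptor. The cause of these changes was not tested, apart from the fewer samples that some settings leave.

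Directions turned for values that were never called. With the block, the embryonic LPS change of Tlr9 was 0.142, and without 1 culture -0.273 to 0.772 (0.065, -0.273 and 0.772 without embryonic culture 1, 2 or 3, and 0.139, 0.158 and 0.148 without adult culture 1, 2 or 3), that of Tlr5 was -0.478 without embryonic culture 1 and that of Tlr8 0.211 without embryonic culture 3. In adult stroma, Tlr6 was at -0.028, Tlr8 at 0.180 and Tlr9 at 1.466 without adult culture 1, 2 or 3. The difference of responses was 0.316 (Tlr8, without embryonic culture 3), 0.701 and 0.850 (Tlr13 and Tlr8, without adult culture 1) and -1.317 (Tlr9, without adult culture 3). Tlr2 was at -0.330 between the stages with counts summed per culture. Leaving out 1 library, the embryonic LPS change ranged from -0.288 to 0.799 for Tlr5, -0.066 to 2.297 for Tlr7, -1.063 to 0.723 for Tlr8 and -1.254 to 1.834 for Tlr9. The adult LPS change ranged from -0.929 to 1.382 for Tlr7, -1.945 to 0.589 for Tlr8 and -4.221 to 0.957 for Tlr9. The difference of responses ranged from -0.998 to 1.995 for Tlr1, -3.138 to 1.825 for Tlr13, -0.011 to 0.648 for Tlr6, -0.600 to 2.218 for Tlr7, -1.144 to 1.376 for Tlr8 and -1.202 to 3.976 for Tlr9. The difference between the stages over both treatments ranged from -0.065 to 0.626 for Tlr3 and -0.548 to 0.043 for Tlr5. Tlr12 and the adult levels of Tlr1, Tlr9 and Tlr13 are limited by counts near the floor of 3 per library.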
